A study of Mus musculus with 82 samples.

Results

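The axon guidance ligands and receptors studied here are 70 genes measured in mouse sciatic nerve. They are all gene symbols in the 8 deposited count tables that begin as a semaphorin (Sema), plexin (Plxn), Eph receptor (Epha or Ephb) or ephrin (Efna or Efnb), or that equal a neuropilin (Nrp), Slit, Robo, netrin (Ntn) or Unc5 name. Over all tables the 70 stood among 78308 symbols. They comprised 20 semaphorins, 9 plexins, 2 neuropilins, 8 ephrins, 14 Eph receptors, 3 Slits, 4 Robo receptors, 3 netrins, 4 Unc5 receptors and 3 transcripts named for the strand opposite Plxna4. All 70 were listed in 6 of the tables, 68 in the table labelled Egr2Cre Mitf and 65 in the table with Ndrg1. The choice used names and no measured value.

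These families are the classical cues that steer growing axons. Semaphorins act through plexins, with neuropilins as coreceptors for most secreted class 3 semaphorins, ephrins act through Eph receptor tyrosine kinases, Slits through Robo receptors, and netrins through Dcc, neogenin and Unc5 receptors. In peripheral nerve the same molecules are also made by the myelinating Schwann cells, by vessels and fibroblasts, and several are known to guide Schwann cells and regrowing axons across an injury.

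The series holds 82 libraries in 22 groups. Of the Fig4 tables, one compared nerves of Fig4 -/- mice with those of Fig4 +/+ mice at postnatal day 12 (P12) and the other at P4 (3 libraries per genotype and age). The Fig4 protein is a lipid phosphatase that acts on endosomes and lysosomes. Libraries labelled Mitf were compared with libraries labelled DhhCre at P21 (5 of each) and with libraries labelled Egr2Cre at P12 (3 of each). Dhh and Egr2 are active in the Schwann cell lineage, and their control regions drive Cre recombinase in such lines, so a deletion made this way would be limited to that lineage. The injury table, labelled Mitf throughout, compared 4 nerves at 3 days post injury with 4 uninjured ones. The time course followed Mutant and wild type nerves at 3, 7 and 14 days post injury (3 libraries per genotype and day). Of the last 2 tables, one compared 3 libraries labelled Egr2Cre Mitf with 3 labelled Mitf and the other held 5 Mitf-Ndrg1, 5 Ndrg1, 6 Mitf and 6 control libraries, with no age or injury given. Ndrg1 protein is plentiful in Schwann cells that make myelin, and Mitf encodes a basic helix-loop-helix transcription factor. It is not stated whether the Mitf gene itself was changed in libraries with a lone Mitf, DhhCre, Egr2Cre or Mutant label, and every direction below is that of the labels. Separate animals are not named either, and the spread behind the p-values may be technical.

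Totals ran from 15440000 to 34530000 estimated counts per library. Levels are given as CPM, counts scaled to library size with TMM, a correction for differences in composition. Fig4 averaged 4.43 ± 1.42 CPM in Fig4 -/- nerves at P12, against 22.7 ± 4.06 CPM in Fig4 +/+ nerves (SD, n = 3 each). Ndrg1 averaged 181 ± 11.4 CPM in Ndrg1 libraries (SD, n = 5), against 1965 ± 95.5 CPM in controls (SD, n = 6). Mitf averaged 19.7 ± 1.69 CPM in libraries labelled Mitf at P21, against 5.74 ± 1.05 CPM in DhhCre libraries (SD, n = 5 each). The summed level of 4 Schwann cell lineage markers (Sox10, S100b, Erbb3 and Foxd3) lay between 100.3 and 2213 CPM over all 82 libraries. Bulk nerve was sequenced, so fewer cells of a type and less RNA per cell cannot be told apart in any result below. Several libraries stood apart in skeletal muscle RNA: the summed level of 12 muscle markers was 7.59 to 299.9 CPM at 3 days and 6584 to 159829 CPM at 14 days in Mutant nerves. It was 305 to 2183 CPM at 3 days and 10717 to 129747 CPM at 14 days for the wild type.

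Of the 70 members, 64 passed the low-count filter (at least 10 counts in enough libraries) in at least 1 comparison. Epha8, Epha10, Robo3, Unc5d and the opposite-strand transcripts Plxna4os2 and Plxna4os3 passed it nowhere. A gene was called where its Benjamini-Hochberg adjusted p, over all genes of the comparison, was under 0.05 in edgeR's quasi-likelihood test. Over 17 comparisons and 2 interactions 57 of the 64 members tested were called at least once, 89.1%, where 72.2% of all 19373 genes tested were. The 7 members tested and never called were the ephrin Efna5, the Eph receptors Epha1, Epha7 and Ephb3, the semaphorins Sema3a and Sema4d, and Slit1.

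To compare genes with one another, levels were also divided by transcript length and scaled to an equal sum per library (TPM). In the 6 control libraries of the table with Ndrg1, the secreted semaphorin Sema3b (chromosome 9, 107597674 to 107609229, minus strand) was the most abundant member at 1571 ± 213 TPM (SD, n = 6). The next were transmembrane semaphorins, Sema5a at 151 ± 23.4, Sema6c at 135 ± 23.95, Sema6d at 102 ± 14.9, Sema4g at 101 ± 15.3 and Sema4c at 92.5 ± 17.2 TPM. Sema5a and Sema6c did not differ beyond their spread, nor did Sema6d, Sema4g and Sema4c, and Sema6c stood more than 1 SD above Sema6d. The leading receptors were Ephb6, a kinase-dead Eph receptor, at 82.4 ± 9.09 TPM, and the plexins Plxnb3 at 51.8 ± 6.73 and Plxnb1 at 50.5 ± 7.06 TPM, which did not differ beyond their spread. Slit2 led the Slits at 84.6 ± 16.1 TPM, Efnb1 the ephrins at 49.3 ± 8.20, Nrp2 the neuropilins at 42.8 ± 5.44, Ntn1 the netrins at 13.8 ± 1.74, Robo4 the Robo receptors at 9.26 ± 1.80 and Unc5a the Unc5 receptors at 1.51 ± 0.318 TPM (SD, n = 6 each). Ligands thus held the first 7 places of the order.

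**Figure D1:**
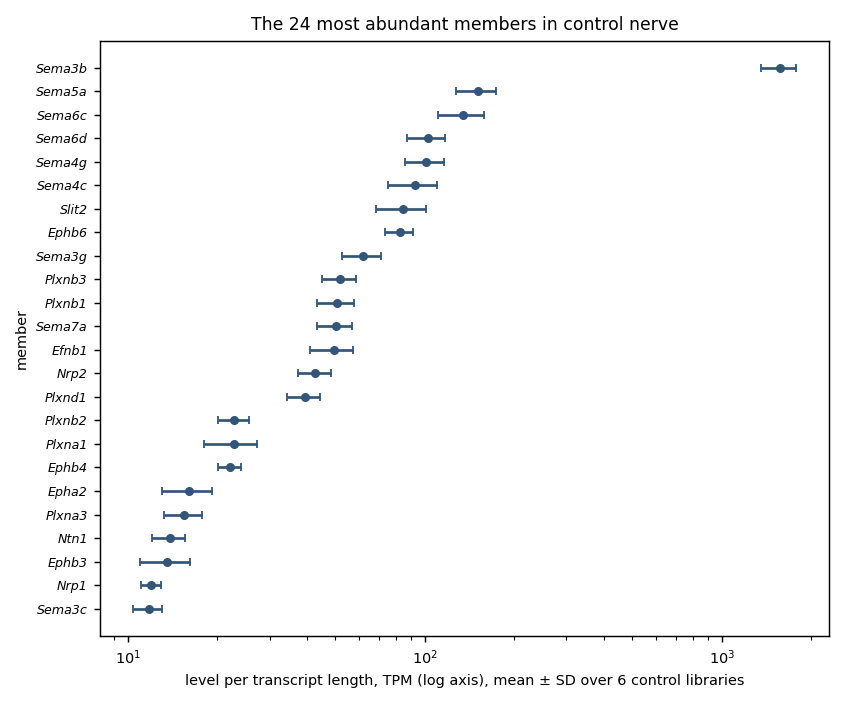
Mean level per transcript length (TPM, log axis) of the 24 most abundant members in the 6 control libraries of the table with Ndrg1, with bars of ± 1 SD. Sema3b stands alone at 1571 TPM, and Sema5a follows at 151 TPM.

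Epha5, Sema5a and Sema6d were called in the same direction in 3 tables that share no library, as described below. Sema4f was so called in 2 of them, and in the Fig4 table at P12 the low-count filter fixed its direction. The 250 bases before the RefSeq starts of these 4 genes are given here for that reason. The sequences are those of RefSeq on GRCm38.p6, printed from the far end towards the start on the gene's own strand. Capitals mark matches on either strand to 4 motifs: AP-1 (TGANTCA), E-box (CACGTG), Sox (ACAAAG) and Egr (GCGNGGGCG). Sema4f (ENSMUSG00000000627.15, chromosome 6, 82911885 to 82939769, minus strand) encodes a transmembrane class 4 semaphorin, and its upstream region is chr6:82939770-82940019. Epha5 (ENSMUSG00000029245.16, chromosome 5, 84054761 to 84417382, minus strand) encodes a receptor tyrosine kinase for ephrin-A ligands, and its region is chr5:84417383-84417632 on the minus strand. Sema5a (ENSMUSG00000022231.10, chromosome 15, 32244810 to 32696341, plus strand) encodes a transmembrane semaphorin with thrombospondin repeats, and its region is chr15:32244563-32244812, whose last 3 bases lie inside the GENCODE gene given here, since the RefSeq start lies further in. Sema6d (ENSMUSG00000027200.17, chromosome 2, 124089969 to 124667770, plus strand) has 2 RefSeq starts, and the region before the first is chr2:124089719-124089968.
Sema4f: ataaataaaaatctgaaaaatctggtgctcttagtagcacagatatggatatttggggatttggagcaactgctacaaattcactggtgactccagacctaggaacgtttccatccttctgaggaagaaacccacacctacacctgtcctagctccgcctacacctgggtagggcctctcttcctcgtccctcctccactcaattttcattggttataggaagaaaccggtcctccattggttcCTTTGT
Epha5: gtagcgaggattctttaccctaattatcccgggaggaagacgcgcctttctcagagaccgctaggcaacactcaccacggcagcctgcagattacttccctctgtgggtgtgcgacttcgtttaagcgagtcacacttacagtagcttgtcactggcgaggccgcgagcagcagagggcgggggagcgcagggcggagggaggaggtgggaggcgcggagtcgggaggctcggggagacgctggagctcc
Sema5a: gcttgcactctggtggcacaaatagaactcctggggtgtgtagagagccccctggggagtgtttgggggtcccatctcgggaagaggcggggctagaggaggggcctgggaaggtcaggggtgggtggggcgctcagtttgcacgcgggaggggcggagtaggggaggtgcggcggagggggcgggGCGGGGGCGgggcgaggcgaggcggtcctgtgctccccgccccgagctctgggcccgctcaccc
Sema6d: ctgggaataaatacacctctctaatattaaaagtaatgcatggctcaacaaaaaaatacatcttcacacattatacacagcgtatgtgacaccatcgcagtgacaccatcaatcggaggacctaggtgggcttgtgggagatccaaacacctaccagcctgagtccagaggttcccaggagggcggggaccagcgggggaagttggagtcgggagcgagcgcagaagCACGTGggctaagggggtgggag
In Sema4f the letters CTTTGT, the Sox motif on the other strand, began 6 bases before the RefSeq start. In Sema5a the letters GCGGGGGCG, an Egr match, began 64 bases before it, in Sema6d the E-box letters CACGTG began 23 bases before it, and Epha5 held none of the 4 motifs in this window. Of 32851 promoters of the same length in the table, 6.749% held the AP-1 letters, 6.021% the E-box, 16.462% the Sox and 4.697% the Egr letters. Promoters were listed for 58 members, 74 in all, of which 3, 4, 7 and 12 held the AP-1, E-box, Sox and Egr letters in that order. A match is a run of letters and was not tested as a binding site.

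At P12, 6 of 57 tested members differed between Fig4 -/- and Fig4 +/+ nerves, where 3.03% of all 14338 genes and 10.5% of the members were called. Sema4f, Sema3g, Plxna4 and Epha5 were higher (1.87% of all genes) and Sema5a and Sema6d lower (1.16% of all genes), and for all 6 the groups did not overlap, as for each of the 435 genes called. The median log2 change of the members tested was -0.05, against 0.00 over all genes.

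Among the ligands, Sema4f had 4.52, 3.65 and 3.44 CPM in Fig4 -/- libraries, against 0.0448, 0 and 0.181 CPM in Fig4 +/+ libraries. It was all but undetected in the Fig4 +/+ nerves, at a mean of 1.67 estimated counts per library, so the size of its change (log2 change 5.57, SE 0.903, adjusted p = 0.00709) is imprecise. It passed the low-count filter through the Fig4 -/- libraries alone, so it could only be tested as a gene that is higher there. Sema3g, a secreted semaphorin that acts through Nrp2, had 51.8, 62.3 and 35.3 CPM in Fig4 -/- libraries, against 27.8, 21.7 and 19.3 CPM in Fig4 +/+ libraries (log2 change 1.12, SE 0.219, adjusted p = 0.0182). Sema3g lay above the Fig4 +/+ range in every Fig4 -/- library. Sema5a had 395, 299 and 462 CPM in Fig4 -/- libraries, against 769.8, 672 and 702 CPM in Fig4 +/+ libraries (log2 change -0.89, SE 0.154, adjusted p = 0.0102). Sema6d, a transmembrane ligand of class A plexins, had 242, 203 and 227 CPM in Fig4 -/- libraries, against 366, 351 and 305 CPM in Fig4 +/+ libraries (log2 change -0.61, SE 0.122, adjusted p = 0.0214). These abundant transmembrane semaphorins fell in every Fig4 -/- library.

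Among the receptors, Plxna4, which transmits class 3 and class 6 semaphorin signals, had 17.7, 8.54 and 12.05 CPM in Fig4 -/- libraries, against 3.09, 6.12 and 4.89 CPM in Fig4 +/+ libraries (log2 change 1.44, SE 0.342, adjusted p = 0.0448). Epha5 had 59.9, 40.5 and 77.8 CPM in Fig4 -/- libraries, against 30.5, 31.6 and 34.5 CPM in Fig4 +/+ libraries (log2 change 0.88, SE 0.21, adjusted p = 0.0454). The Fig4 +/+ values of Epha5 lay close together and the Fig4 -/- values were spread widely above them. No ephrin, neuropilin, Slit, Robo, netrin or Unc5 member passed the test (18 tested).

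A list of 61 other genes of the same pathways, receptors such as neogenin and effectors such as GTPase exchange factors, was set beside the members. At P12, 51 of them were tested, 1 rose and 1 fell. Flrt3, a membrane protein that binds Unc5 receptors, rose (log2 change 0.84, SE 0.17, adjusted p = 0.0221), and Adam10, a protease that sheds ephrins and other surface proteins, fell (log2 change -0.62, SE 0.143, adjusted p = 0.0412). Other cell markers moved in the same comparison: 9 of 14 macrophage markers were higher, and their summed level was 1019 to 1361 CPM in Fig4 -/- libraries and 587 to 717 CPM in Fig4 +/+ libraries. Repair Schwann cell genes were also higher, 8 of 10 tested, with sums of 277 to 319 CPM in Fig4 -/- libraries and 50.7 to 61.6 CPM in Fig4 +/+ libraries, where Olig1 and Artn were at 0. Muscle markers summed to 11.3 to 15.6 CPM in Fig4 -/- libraries, with Myh2 and Tnnc2 at 0, and to 17.2 to 129 CPM in Fig4 +/+ libraries. Their part in the result was not tested, apart from a fit with the muscle level as a covariate, which called 0 members. The muscle sums did not overlap between the genotypes, so that fit cannot separate muscle level from genotype. With single libraries left out 2 to 5 members were called, 2 without Fig4 +/+ replicate 2 and 3 without Fig4 +/+ replicate 1 or Fig4 -/- replicate 1 or 2.

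At P4 none of the members differed past the threshold between the Fig4 genotypes (0 of 62 in edgeR, 0 at an unadjusted p under 0.05 and 0 in DESeq2), where 0.00672% of all genes were called. The smallest p-values belonged to Slit3, a secreted Slit (log2 change 0.26), Efna4, a membrane-anchored ephrin (-0.36), and Robo4, the endothelial Robo receptor (0.38), each with an adjusted p of 1. In each genotype 1 library stood apart: Fig4 -/- replicate 3 and Fig4 +/+ replicate 1 held the lowest value of their group for 45 of the 62 members each. Sema6d had 621, 578 and 216 CPM in Fig4 -/- libraries, against 163, 622 and 630.2 CPM in Fig4 +/+ libraries, and Sema3b had 974, 819 and 423 CPM, against 268, 889 and 870.1 CPM. Muscle markers summed to 11240 CPM in Fig4 -/- replicate 3 (251 and 795 CPM in the other Fig4 -/- libraries) and to 13789 CPM in Fig4 +/+ replicate 1 (148 and 2047 CPM in the others), and myelin markers to 71865 CPM (121625 and 127982 CPM) and 46591 CPM (135129 and 140820 CPM). With either library left out, and with the muscle level as a covariate, 0 members were called. Sema4f averaged 0.488 ± 0.147 CPM in Fig4 -/- nerves and 0.452 ± 0.101 CPM in Fig4 +/+ nerves at this age (SD, n = 3 each). Whether the change at P12 differed from that at P4 was not tested, since the ages came in separate tables. None of the 57 pathway genes tested was called at P4.

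Nerves 3 days post injury differed from uninjured nerves in 8 of 59 tested members, where 22.1% of all 15245 genes were called. Efna1, Sema4f and Epha5 were higher (11.7% of all genes), and 5 semaphorins, Sema6d, Sema3d, Sema5a, Sema4g and Sema6c, were lower (10.4% of all genes). For 6 of the 8 the groups did not overlap, the exceptions being Epha5 and Sema4g (93.5% of all called genes did not overlap). The median log2 change of the members was -0.11, against 0.03 over all genes, and the share of members called lay below that of all genes.

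Of the higher ligands, Efna1, a membrane-anchored ligand of EphA receptors, had 13.0, 15.4, 18.5 and 21.9 CPM in injured nerves, against 10.6, 7.25, 8.82 and 7.999 CPM in uninjured nerves (log2 change 0.99, SE 0.218, adjusted p = 0.0122). Sema4f had 8.03, 8.77, 0.965 and 2.29 CPM in injured nerves, against 0.557, 0.801, 0.621 and 0.708 CPM in uninjured nerves (log2 change 2.89, SE 0.696, adjusted p = 0.0167). Replicates 1 and 2 of the injured nerves were far above the others, and replicate 3 only just above the uninjured range. The receptor Epha5 had 42.3, 41.2, 6.76 and 16.7 CPM in injured nerves, against 6.07, 10.3, 5.22 and 8.12 CPM in uninjured nerves (log2 change 1.85, SE 0.537, adjusted p = 0.0386). Its injured replicate 3 lay inside the uninjured range.

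The lower members were all semaphorins. Sema6d had 112, 96.6, 174 and 112 CPM in injured nerves, against 253, 267, 263 and 235 CPM in uninjured nerves (log2 change -1.04, SE 0.18, adjusted p = 0.00504). Sema3d, a secreted class 3 semaphorin, had 5.06, 7.85, 5.62 and 7.40 CPM in injured nerves, against 15.0, 13.3, 14.5 and 20.5 CPM in uninjured nerves (log2 change -1.29, SE 0.23, adjusted p = 0.00565). Both were below the uninjured range in each of the 4 injured nerves. Sema5a had 154, 214, 419.6 and 304 CPM in injured nerves, against 613, 722, 533 and 556 CPM in uninjured nerves (log2 change -1.15, SE 0.278, adjusted p = 0.0171). Sema6c, a transmembrane class 6 semaphorin, had 108, 109, 283 and 146 CPM in injured nerves, against 292, 312, 315 and 287 CPM in uninjured nerves (log2 change -0.90, SE 0.288, adjusted p = 0.0492), and the class 4 semaphorin Sema4g had 50.8, 31.2, 99.0 and 51.4 CPM, against 119, 109, 121 and 98.2 CPM (log2 change -0.94, SE 0.297, adjusted p = 0.0486). In each of these 3, injured replicate 3 was the highest of the injured nerves.

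Injured replicate 1 stood apart as well: it held the highest value of the 4 injured nerves for 22 of 59 tested members and lay more than 2-fold above the next for 11 of them. Plxnb1, a receptor of class 4 semaphorins, had 355, 58.8, 163 and 98.3 CPM in injured nerves, against 175, 193, 205 and 179 CPM in uninjured nerves. For the Eph receptor Ephb1 the values were 75.0, 17.8, 23.5 and 19.0 CPM in injured and 43.2, 53.4, 46.5 and 38.9 CPM in uninjured nerves. In both genes replicate 1 was above all uninjured nerves and the other 3 below them, and neither was called. Injured replicate 3 kept the most myelin RNA of the injured nerves. The summed level of 10 myelin markers was 96295 CPM there and 38055 to 66963 CPM in the other injured nerves, against 109054 to 136471 CPM in uninjured nerves. Repair Schwann cell markers summed to 451 to 1083 CPM in injured nerves and 126 to 138 CPM in uninjured nerves, with 7 of 10 tested higher, and macrophage markers to 1065 to 2784 and 585 to 1434 CPM, with 3 of 14 higher. Their part in the result was not tested. Without injured replicate 1 the number of members called was 9, of which 5 were among the 8 called with it, and the calls of Epha5, Sema4g and Sema6c were lost. Without injured replicate 3 it was 20, without injured replicate 2 it was 3, without uninjured replicate 1, 2 or 3 it was 4, and without uninjured replicate 4 it was 5. Without the low-count filter it was 5. Of 57 pathway genes 5 rose and 11 fell, the 2 smallest p-values of each direction being those of Fes, a tyrosine kinase (log2 change 1.24, SE 0.257, adjusted p = 0.00963), Gipc1, a scaffold that binds neuropilin 1 (log2 change 0.61, SE 0.132, adjusted p = 0.0112), Adam10 (log2 change -1.16, SE 0.218, adjusted p = 0.0071) and Arhgef12, a GTPase exchange factor bound by B plexins (log2 change -0.73, SE 0.143, adjusted p = 0.00788).

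The Fig4 table at P12, the injury table and the table with Ndrg1 have no library in common, so their calls can be set side by side. Epha5 was called higher and Sema5a and Sema6d lower in all 3. In the injury table the Epha5 groups overlapped, and its call was lost without injured replicate 1. Sema4f was called higher in all 3 as well, but its direction in the Fig4 table was fixed by the filter, so only the other 2 tables bear on it. Between Fig4 -/- at P12 and Ndrg1 the overlap was 3 members among the higher (75.0% of the 4 and 30.0% of the 10) and 2 among the lower (all of the 2 and 6.45% of the 31). The higher ones were Epha5, Plxna4 and Sema4f. Since Sema4f could only be called higher in the Fig4 table, its place in this overlap is not counted as agreement. Sema3g went the opposite way, at 1.12 in Fig4 -/- nerves and -0.90 in Ndrg1 libraries. Between injury and Ndrg1, 2 higher members (66.7% of the 3, and 2 of the 10) and 5 lower members (all of the 5 and 16.1% of the 31) were shared, and 0 moved in opposite directions. The lower ones were Sema3d, Sema4g, Sema5a, Sema6c and Sema6d. In Ndrg1 libraries 60.5% of all genes were called, so such overlaps are to be read against a high background.

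**Figure D2:**
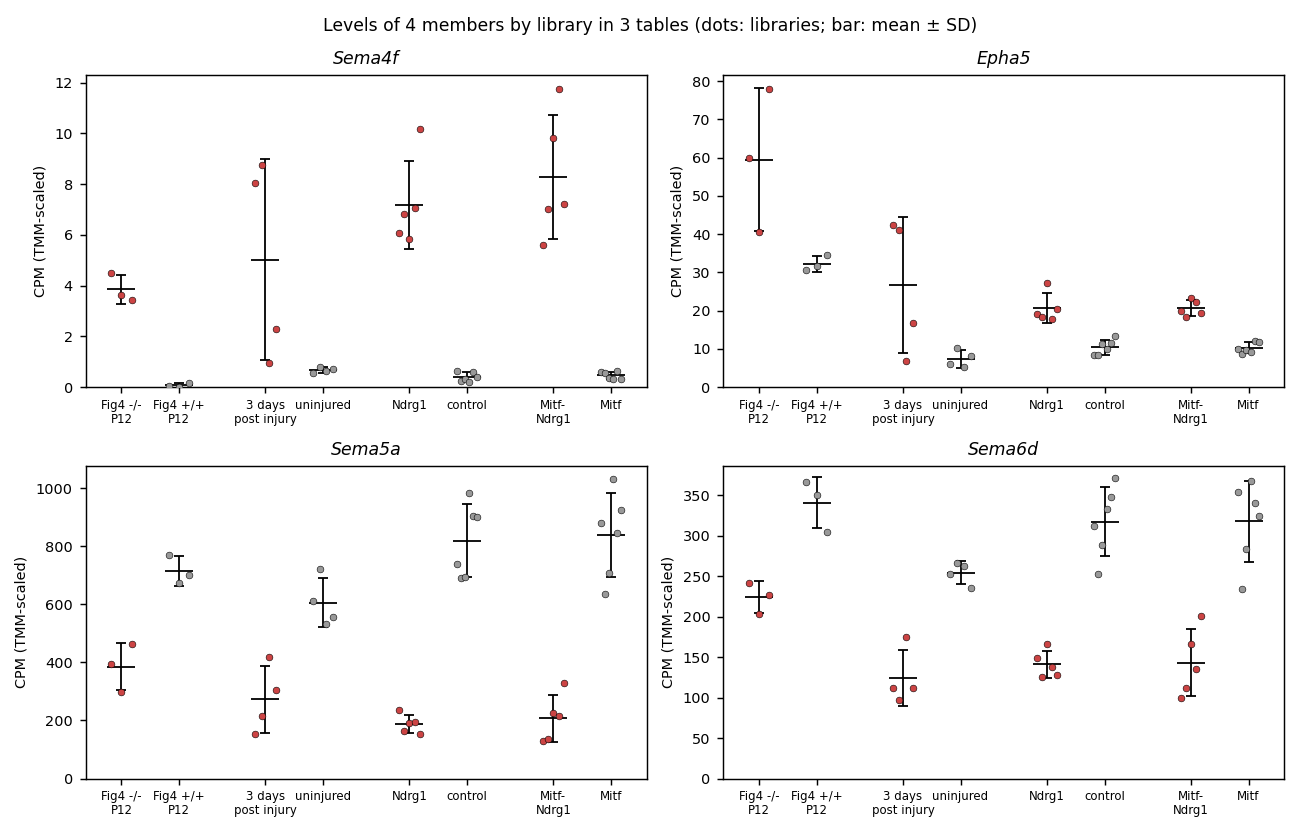
Level (CPM, linear axis) of Sema4f, Epha5, Sema5a and Sema6d in Fig4 -/- and Fig4 +/+ nerves at P12, in nerves 3 days post injury and uninjured nerves, and in Ndrg1, control, Mitf-Ndrg1 and Mitf libraries; dots are libraries and bars the mean ± SD. Sema4f and Epha5 are higher and Sema5a and Sema6d lower in the left group of each pair, and injured replicate 3 lies nearest the uninjured nerves.

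In the time course more members were called between 3 and 7 days than between 7 and 14 days. In Mutant nerves 31 of 63 tested members were called between 7 and 3 days (21 higher and 10 lower), where 33.4% of all 15852 genes were called (16.2% higher and 17.2% lower). In wild type nerves 27 of 63 were called (12 higher and 15 lower), where 39.1% of all genes were called (19.4% higher and 19.6% lower). The members' shares, 49.2% in Mutant and 42.9% in wild type nerves, lay above the background in Mutant and near it in wild type nerves. The groups did not overlap for any of these 58 calls, as for 98.3% of all called genes in Mutant and 98.1% in wild type nerves. The genotypes share no library, and 11 higher members (52.4% of the 21 in Mutant and 91.7% of the 12 in wild type nerves) and 10 lower members (all of the 10 and 66.7% of the 15) were called in both, with 0 in opposite directions. The median log2 change of the members was 0.36 in Mutant and 0.18 in wild type nerves, against 0.00 and 0.04 over all genes.

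Of the secreted semaphorins, Sema3b and Sema3g fell. In Mutant nerves Sema3b had 350.0, 488 and 436 CPM at 3 days, 175, 129.7 and 73.2 CPM at 7 days and 56.2, 46.3 and 107 CPM at 14 days. In wild type nerves it had 316, 397 and 332 CPM at 3 days, 37.6, 58.5 and 91.8 CPM at 7 days and 58.1, 41.6 and 41.0 CPM at 14 days. At 7 days it was lower than at 3 days in both (log2 change -1.75, SE 0.366, adjusted p = 0.00199 in Mutant and log2 change -2.48, SE 0.376, adjusted p = 0.00014 in wild type nerves). Mutant nerves had Sema3g at 87.9, 144 and 118 CPM at 3 days, 47.1, 43.3 and 31.2 CPM at 7 days and 29.4, 25.2 and 76.6 CPM at 14 days. Sema3g of wild type nerves stood at 115, 111 and 113 CPM at 3 days, 12.1, 22.9 and 22.7 CPM at 7 days and 23.5, 15.3 and 15.4 CPM at 14 days. Its day 7 values lay below all day 3 values of the same genotype (log2 change -1.52, SE 0.364, adjusted p = 0.00491 in Mutant and log2 change -2.55, SE 0.379, adjusted p = 0.000119 in wild type nerves).

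Sema3c and Sema3d, secreted semaphorins that act through neuropilins, went up instead. Sema3c had 66.0, 47.2 and 52.1 CPM at 3 days, 75.5, 57.9 and 78.1 CPM at 7 days and 92.8, 84.1 and 74.9 CPM at 14 days in Mutant nerves. It had 35.4, 51.7 and 37.1 CPM at 3 days, 100.2, 92.7 and 88.5 CPM at 7 days and 93.9, 86.0 and 73.7 CPM at 14 days in wild type nerves. The rise between 3 and 7 days was called in wild type nerves (log2 change 1.18, SE 0.173, adjusted p = 0.000104), and the Mutant value was 0.35 (adjusted p = 0.123); the difference between these 2 changes was not tested. Sema3d had 7.80, 7.81 and 8.44 CPM at 3 days, 23.0, 14.6 and 20.3 CPM at 7 days and 15.6, 14.5 and 25.5 CPM at 14 days in Mutant nerves. It had 7.18, 8.36 and 7.01 CPM at 3 days, 12.7, 11.3 and 17.4 CPM at 7 days and 20.7, 19.8 and 19.3 CPM at 14 days in wild type nerves. Both genotypes rose by day 7 (log2 change 1.27, SE 0.218, adjusted p = 0.000513 in Mutant and log2 change 0.87, SE 0.219, adjusted p = 0.0055 in wild type nerves).

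Sema3e, the secreted semaphorin that binds Plxnd1 directly, had 16.5, 17.8 and 18.5 CPM at 3 days, 25.4, 45.2 and 37.2 CPM at 7 days and 7.11, 7.39 and 15.5 CPM at 14 days in Mutant nerves. Sema3e in wild type nerves had 11.2, 15.9 and 11.4 CPM at 3 days, 16.1, 17.3 and 29.7 CPM at 7 days and 9.60, 6.71 and 13.3 CPM at 14 days. In Mutant nerves it was higher at 7 than at 3 days (1.03, adjusted p = 0.0238) and lower at 14 than at 7 days (log2 change -1.84, SE 0.336, adjusted p = 0.00276). The wild type values were 0.71 (adjusted p = 0.0967) and -1.08 (adjusted p = 0.058).

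Membrane-bound semaphorins fell, rose or peaked. Sema7a, the membrane-anchored ligand of Plxnc1, had 239.6, 390.5 and 315 CPM at 3 days, 101, 102 and 96.2 CPM at 7 days and 28.4, 31.4 and 68.96 CPM at 14 days in Mutant nerves. The wild type values of Sema7a were 242, 234 and 258 CPM at 3 days, 58.8, 112 and 72.5 CPM at 7 days and 44.8, 22.4 and 28.3 CPM at 14 days. It fell at each step: at 7 against 3 days (log2 change -1.66, SE 0.332, adjusted p = 0.0015 in Mutant and log2 change -1.60, SE 0.331, adjusted p = 0.00155 in wild type nerves) and at 14 against 7 days (log2 change -1.22, SE 0.33, adjusted p = 0.0211 in Mutant and log2 change -1.35, SE 0.332, adjusted p = 0.0291 in wild type nerves). The class 4 semaphorin Sema4b had 28.8, 31.5 and 29.9 CPM at 3 days, 12.1, 17.2 and 11.6 CPM at 7 days and 7.06, 5.22 and 15.1 CPM at 14 days in Mutant nerves. For wild type nerves the Sema4b values were 31.2, 33.0 and 30.6 CPM at 3 days, 7.42, 10.8 and 9.15 CPM at 7 days and 6.69, 3.91 and 5.59 CPM at 14 days. Its fall between 3 and 7 days was called in both (log2 change -1.14, SE 0.295, adjusted p = 0.00793 in Mutant and log2 change -1.79, SE 0.302, adjusted p = 0.000335 in wild type nerves). Sema4a, another class 4 semaphorin, had 24.9, 15.98 and 17.6 CPM at 3 days, 7.74, 9.35 and 8.29 CPM at 7 days and 13.6, 9.06 and 14.8 CPM at 14 days in Mutant nerves. Wild type nerves had Sema4a at 17.4, 23.8 and 17.1 CPM at 3 days, 10.1, 15.0 and 9.55 CPM at 7 days and 11.2, 7.89 and 6.86 CPM at 14 days. It was lower at 7 than at 3 days (log2 change -1.201, SE 0.248, adjusted p = 0.00187 in Mutant and log2 change -0.75, SE 0.245, adjusted p = 0.0251 in wild type nerves).

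Sema5b, a transmembrane semaphorin related to Sema5a, was low throughout. It had 0.666, 0.566 and 0.763 CPM at 3 days, 2.67, 3.501 and 2.03 CPM at 7 days and 2.61, 3.12 and 3.92 CPM at 14 days in Mutant nerves. Sema5b of wild type nerves stood at 0.864, 0.893 and 0.650 CPM at 3 days, 1.92, 4.29 and 3.18 CPM at 7 days and 2.54, 2.14 and 2.60 CPM at 14 days. It rose between 3 and 7 days in both (log2 change 2.03, SE 0.311, adjusted p = 0.000208 in Mutant and log2 change 1.96, SE 0.306, adjusted p = 0.00018 in wild type nerves). Sema4f had 28.8, 25.7 and 23.8 CPM at 3 days, 49.7, 56.7 and 70.9 CPM at 7 days and 12.1, 13.0 and 30.8 CPM at 14 days in Mutant nerves. Sema4f in wild type nerves had 22.1, 26.8 and 22.3 CPM at 3 days, 22.9, 47.3 and 45.4 CPM at 7 days and 19.0, 7.52 and 14.9 CPM at 14 days. It was lower at 14 than at 7 days in both (log2 change -1.66, SE 0.369, adjusted p = 0.00807 in Mutant and log2 change -1.48, SE 0.371, adjusted p = 0.0313 in wild type nerves), after a rise to 7 days that was called in Mutant nerves (1.18, adjusted p = 0.0209) and stood at 0.70 (adjusted p = 0.135) in wild type nerves.

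Among the other ligands, the ephrin Efnb3 (chromosome 11, 69554092 to 69560205, minus strand), a transmembrane ligand of EphB receptors, had 2.38, 1.46 and 2.54 CPM at 3 days, 19.0, 8.10 and 9.73 CPM at 7 days and 23.8, 14.7 and 22.0 CPM at 14 days in Mutant nerves. The wild type values of Efnb3 were 1.91, 2.80 and 1.49 CPM at 3 days, 8.59, 7.20 and 12.4 CPM at 7 days and 17.1, 14.2 and 18.5 CPM at 14 days. Every day 7 value lay above every day 3 value of its genotype (log2 change 2.53, SE 0.35, adjusted p = 9.84e-05 in Mutant and log2 change 2.17, SE 0.349, adjusted p = 0.000225 in wild type nerves). Efna4 and Efnb1 were also called higher at 7 days in both genotypes, and 0 of 8 ephrins fell. Of the netrins, Ntn1 and Ntn5 fell in both genotypes and Ntn4 rose in Mutant nerves (0.49, adjusted p = 0.0328). Ntn1, the secreted netrin that binds Dcc and Unc5 receptors, had 70.7, 65.6 and 74.7 CPM at 3 days, 43.96, 43.7 and 40.4 CPM at 7 days and 41.1, 34.1 and 81.7 CPM at 14 days in Mutant nerves. For wild type nerves the Ntn1 values were 66.4, 67.4 and 55.7 CPM at 3 days, 26.0, 28.7 and 28.6 CPM at 7 days and 28.1, 29.4 and 28.5 CPM at 14 days. Its fall by day 7 was called in both (log2 change -0.72, SE 0.223, adjusted p = 0.0214 in Mutant and log2 change -1.19, SE 0.226, adjusted p = 0.000825 in wild type nerves). Ntn5, a less studied netrin, had 9.42, 14.5 and 11.8 CPM at 3 days, 2.62, 4.91 and 4.06 CPM at 7 days and 3.15, 2.03 and 4.78 CPM at 14 days in Mutant nerves. Wild type nerves had Ntn5 at 13.7, 7.96 and 8.08 CPM at 3 days, 2.16, 1.87 and 2.85 CPM at 7 days and 1.36, 1.18 and 2.54 CPM at 14 days. It too was lower by day 7 (log2 change -1.62, SE 0.347, adjusted p = 0.00237 in Mutant and log2 change -2.11, SE 0.361, adjusted p = 0.000365 in wild type nerves). Slit2, a secreted Robo ligand, fell between 3 and 7 days as well (-0.90 in Mutant and -1.45 in wild type nerves), and Slit3 rose in Mutant nerves (0.89, adjusted p = 0.0481).

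Among the receptors, Epha3 (chromosome 16, 63543534 to 63864175, minus strand), a kinase for ephrin-A ligands, made the steepest rise of the named members. It had 2.00, 1.21 and 0.805 CPM at 3 days, 18.5, 11.7 and 20.05 CPM at 7 days and 7.17, 11.1 and 13.2 CPM at 14 days in Mutant nerves. In wild type nerves Epha3 had 1.41, 1.18 and 1.02 CPM at 3 days, 13.7, 30.5 and 16.1 CPM at 7 days and 14.2, 9.66 and 9.09 CPM at 14 days. The rise by day 7 was 3.65 in Mutant nerves (SE 0.389, adjusted p = 1.1e-05) and 4.06 in wild type nerves (SE 0.396, adjusted p = 3e-06). Epha4, a kinase that binds ephrins of both classes, had 2.24, 2.14 and 2.25 CPM at 3 days, 6.93, 5.54 and 5.83 CPM at 7 days and 5.92, 5.94 and 11.7 CPM at 14 days in Mutant nerves. Epha4 in wild type nerves had 2.41, 3.00 and 2.28 CPM at 3 days, 3.89, 7.20 and 5.31 CPM at 7 days and 6.19, 3.84 and 5.46 CPM at 14 days. It rose by day 7 in both (log2 change 1.46, SE 0.286, adjusted p = 0.00131 in Mutant and log2 change 1.09, SE 0.284, adjusted p = 0.00698 in wild type nerves).

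Robo1, a receptor for Slits, had 2.14, 2.27 and 1.99 CPM at 3 days, 8.62, 7.06 and 8.39 CPM at 7 days and 5.00, 4.20 and 15.1 CPM at 14 days in Mutant nerves. The wild type values of Robo1 were 1.55, 1.46 and 1.63 CPM at 3 days, 6.61, 14.8 and 8.22 CPM at 7 days and 5.76, 3.69 and 4.45 CPM at 14 days. It rose by day 7 (log2 change 1.91, SE 0.407, adjusted p = 0.00231 in Mutant and log2 change 2.68, SE 0.42, adjusted p = 0.000185 in wild type nerves). Unc5c, a netrin receptor that mediates repulsion, had 0.904, 0.566 and 0.890 CPM at 3 days, 3.00, 2.56 and 4.76 CPM at 7 days and 1.25, 1.45 and 2.34 CPM at 14 days in Mutant nerves. For wild type nerves the Unc5c values were 0.727, 0.771 and 0.604 CPM at 3 days, 1.85, 6.95 and 2.59 CPM at 7 days and 1.42, 1.62 and 1.72 CPM at 14 days. It was under 1 CPM at 3 days and rose by day 7 (log2 change 2.12, SE 0.437, adjusted p = 0.00183 in Mutant and log2 change 2.44, SE 0.443, adjusted p = 0.000589 in wild type nerves).

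Neuropilins moved apart. Nrp2, a coreceptor for class 3 semaphorins, had 110.4, 136 and 135 CPM at 3 days, 61.7, 57.3 and 51.2 CPM at 7 days and 42.0, 31.2 and 97.8 CPM at 14 days in Mutant nerves. Wild type nerves had Nrp2 at 108, 143 and 119.5 CPM at 3 days, 29.8, 45.4 and 41.6 CPM at 7 days and 36.9, 25.4 and 30.1 CPM at 14 days. It fell by day 7 (log2 change -1.16, SE 0.31, adjusted p = 0.00944 in Mutant and log2 change -1.67, SE 0.315, adjusted p = 0.00079 in wild type nerves). Nrp1, a coreceptor for class 3 semaphorins and for vascular growth factor, was higher at 7 days (1.18, adjusted p = 0.026 in Mutant and 1.19, adjusted p = 0.0228 in wild type nerves). Of 9 plexins, 1 was called in Mutant nerves (Plxna3, lower) and 4 in wild type nerves (Plxna1, Plxna3, Plxnb3 and Plxnd1, all lower).

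**Figure D3:**
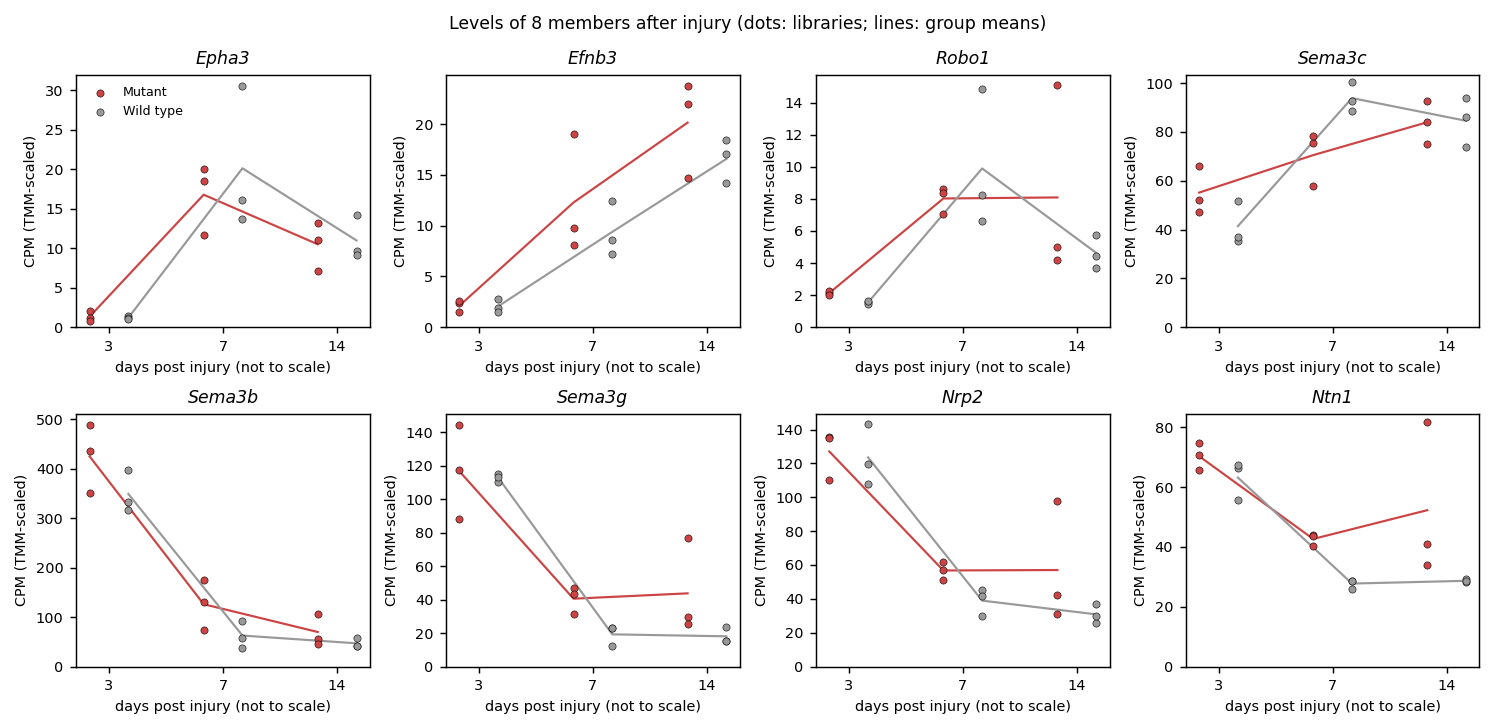
Level (CPM, linear axis) of 8 members at 3, 7 and 14 days post injury in Mutant (red) and wild type (grey) nerves; dots are the 3 libraries of a group and lines join group means. Epha3, Efnb3 and Robo1 are higher at 7 than at 3 days and Sema3b, Sema3g, Nrp2 and Ntn1 lower, and 1 Mutant library at 14 days lies above the others for Robo1, Sema3g, Nrp2 and Ntn1.

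The pathway genes moved in both directions between 3 and 7 days. In Mutant nerves 9 of 57 rose and 16 fell, and in wild type nerves 8 rose and 20 fell. Nck1, an adaptor of Eph and Robo signalling, rose in both (log2 change 1.01, SE 0.158, adjusted p = 0.000256 in Mutant and log2 change 1.23, SE 0.159, adjusted p = 3.77e-05 in wild type nerves). Nrcam, an adhesion molecule that partners with neuropilins, fell in both (log2 change -2.61, SE 0.459, adjusted p = 0.000625 in Mutant and log2 change -3.42, SE 0.476, adjusted p = 7.33e-05 in wild type nerves). Flrt2, a ligand of Unc5 receptors, rose in Mutant nerves (log2 change 1.04, SE 0.205, adjusted p = 0.00139), and neogenin (Neo1), a receptor for netrins, in wild type nerves (log2 change 1.504, SE 0.285, adjusted p = 8e-04). The exchange factor Trio fell in Mutant nerves (log2 change -0.93, SE 0.174, adjusted p = 0.000913) and Mical3, of a family of plexin effectors, in wild type nerves (log2 change -1.81, SE 0.232, adjusted p = 3.42e-05). Fibroblast markers rose at the same step, 9 of 10 in each genotype, with sums of 20414 to 22617 CPM at 7 days and 6476 to 7674 CPM at 3 days in Mutant nerves, and of 16488 to 27046 CPM and 5740 to 7427 CPM in wild type nerves. Endothelial markers rose in 10 of 11 cases in Mutant nerves, with sums of 1331 to 1791 CPM at 7 days and 599 to 940 CPM at 3 days, and in 2 of 11 in wild type nerves (929 to 1176 and 877 to 996 CPM). Their part in the members' changes was not tested. Mutant replicate 1 at 7 days held 13043 CPM of myelin markers, against 758 to 843 CPM in the other 2, and left out in turn, single libraries gave 19 (without Mutant replicate 3 at 3 days) to 25 members in Mutant and 22 to 26 in wild type nerves. Muscle markers rose as well, 8 of 12 in Mutant nerves (1372 to 3227 CPM at 7 days and 7.59 to 299.9 CPM at 3 days) and 6 of 12 in wild type nerves (3107 to 36894 and 305 to 2183 CPM). With the muscle level as a covariate, a choice made after seeing the data, 29 members were called in Mutant nerves, 26 higher and 3 lower, of which 20 were among the 31 called without it. That fit called 30 members in wild type nerves, 19 higher and 11 lower, of which 23 were among those called without it. Among the Mutant calls that fit lost 11, with adjusted p of 0.0696 to 0.967: 8 of the 10 lower members (Ntn1, Ntn5, Nrp2, Plxna3, Sema3g, Sema4b, Sema7a and Slit2, all but Sema3b and Sema4a) and 3 higher ones (Epha5, Ntn4 and Sema3e). Among the wild type calls it lost those of Plxna1, Plxna3, Plxnd1 and Sema4a, all lower, with adjusted p of 0.058 to 0.22. In both genotypes the muscle sums of 3 and 7 days did not overlap, so that fit cannot fully separate muscle level from day.

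Between 7 and 14 days fewer members were called, 11 of 63 in Mutant nerves (1 higher and 10 lower; 17.7% of all genes, 8.55% higher and 9.16% lower) and 4 of 63 in wild type nerves (all lower; 7.41% of all genes, 2.52% higher and 4.9% lower). The members' shares, 17.5% and 6.35%, lay near those backgrounds. Sema4f, Sema7a and Unc5b fell in both genotypes, which is 30.0% of the 10 lower members in Mutant and 75.0% of the 4 in wild type nerves. For Sema4g and Slit2, both lower in Mutant nerves, the groups overlapped, and for the other 9 they did not. Of all genes called between these days in Mutant nerves, 92.8% had groups that did not overlap. The ephrin Efna3, among the lower members in Mutant nerves, would not have passed the low-count filter without the day 7 libraries. The median change of the members was -0.19 in Mutant and -0.39 in wild type nerves, against 0.05 and -0.01 over all genes.

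Unc5b, a netrin receptor known from vessels, had 5.04, 5.99 and 4.88 CPM at 3 days, 9.60, 6.85 and 11.1 CPM at 7 days and 1.90, 1.81 and 4.53 CPM at 14 days in Mutant nerves. In wild type nerves Unc5b had 5.91, 3.74 and 3.90 CPM at 3 days, 3.58, 12.48 and 7.76 CPM at 7 days and 3.47, 1.84 and 2.22 CPM at 14 days. It was lower at 14 than at 7 days (log2 change -1.73, SE 0.423, adjusted p = 0.0132 in Mutant and log2 change -1.66, SE 0.429, adjusted p = 0.0345 in wild type nerves). Epha5 had 68.9, 57.2 and 42.8 CPM at 3 days, 76.5, 148 and 130.3 CPM at 7 days and 42.8, 40.4 and 52.4 CPM at 14 days in Mutant nerves. Epha5 in wild type nerves had 47.8, 40.6 and 42.8 CPM at 3 days, 53.7, 39.3 and 91.0 CPM at 7 days and 38.6, 26.7 and 31.8 CPM at 14 days. Its day 14 level in Mutant nerves was below all day 7 values (log2 change -1.39, SE 0.288, adjusted p = 0.00556), and the wild type value was -0.92 (adjusted p = 0.06).

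Sema6b, a transmembrane class 6 semaphorin, had 16.8, 21.7 and 18.7 CPM at 3 days, 24.7, 24.8 and 24.4 CPM at 7 days and 10.3, 8.98 and 17.05 CPM at 14 days in Mutant nerves. The wild type values of Sema6b were 19.0, 19.4 and 18.9 CPM at 3 days, 14.6, 18.6 and 15.7 CPM at 7 days and 14.4, 9.29 and 9.98 CPM at 14 days. The Mutant day 7 values were nearly equal and stood above all 3 day 14 values (log2 change -1.02, SE 0.211, adjusted p = 0.00541). Plxnc1, the plexin that binds Sema7a, had 10.8, 7.32 and 7.38 CPM at 3 days, 7.31, 11.97 and 5.88 CPM at 7 days and 12.1, 12.46 and 20.3 CPM at 14 days in Mutant nerves. For wild type nerves the Plxnc1 values were 7.23, 7.15 and 6.502 CPM at 3 days, 7.29, 7.55 and 10.4 CPM at 7 days and 11.95, 9.81 and 10.9 CPM at 14 days. It was the 1 member called higher at 14 than at 7 days in Mutant nerves (log2 change 0.83, SE 0.261, adjusted p = 0.0392), with the lowest day 14 value just above the highest day 7 value.

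Sema4c, a transmembrane ligand of Plxnb2, had 34.3, 49.2 and 47.0 CPM at 3 days, 37.0, 43.6 and 39.3 CPM at 7 days and 26.5, 18.1 and 48.4 CPM at 14 days in Mutant nerves. Wild type nerves had Sema4c at 37.4, 39.8 and 34.0 CPM at 3 days, 21.4, 35.1 and 34.2 CPM at 7 days and 19.0, 9.88 and 14.6 CPM at 14 days. It was lower at 14 than at 7 days in wild type nerves (log2 change -1.06, SE 0.307, adjusted p = 0.0493), and the Mutant value was -0.36 (adjusted p = 0.412).

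These calls depended on the fit and on single libraries. With only the 2 groups compared, 0 members were called in either genotype, and with the muscle level as a covariate 5 were called in Mutant and 0 in wild type nerves. Muscle sums of Mutant nerves did not overlap between 7 and 14 days, so that fit cannot fully separate muscle level from day there. Leaving out Mutant replicate 3 at 14 days, which held the least muscle RNA of its group (6584 CPM, against 27268 and 159829 CPM in replicates 1 and 2), gave 24 members in Mutant nerves. Leaving out Mutant replicate 1 or 2 at 14 days gave 7 or 6, and Mutant replicate 2 at 7 days 7. In wild type nerves the count was 7 without replicate 1 at 14 days and 0 without replicate 2 or 3 of either day. Of 57 pathway genes, 4 rose and 10 fell in Mutant nerves and 1 rose and 9 fell in wild type nerves; Cfl1, the actin-severing cofilin, fell in both (log2 change -0.91, SE 0.152, adjusted p = 0.00179 in Mutant and log2 change -0.79, SE 0.152, adjusted p = 0.0111 in wild type nerves). Also in Mutant nerves, Nrcam fell (log2 change -2.62, SE 0.47, adjusted p = 0.00253), and Ngef, an exchange factor of EphA receptors (log2 change 1.56, SE 0.326, adjusted p = 0.00576), and the cytoskeletal kinase Rock1 (log2 change 0.51, SE 0.117, adjusted p = 0.00934) rose. In wild type nerves Nck1 rose (log2 change 0.66, SE 0.157, adjusted p = 0.0263) and Dpysl3, a collapsin response mediator, fell (log2 change -0.95, SE 0.18, adjusted p = 0.0107). Repair Schwann cell markers fell at this step, 10 of 11 in Mutant nerves (213 to 397 CPM at 14 days and 574 to 1400 CPM at 7 days) and 8 of 11 in wild type nerves (199 to 295 and 496 to 936 CPM). Endothelial markers fell in 8 of 11 cases in Mutant nerves (603 to 1230 CPM at 14 days and 1331 to 1791 CPM at 7 days) and in 0 of 11 in wild type nerves. Their part in the members' changes was not tested.

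Set against wild type nerves of the same day, Mutant nerves differed in 0 of 63 members at 3 days, in 0 at 7 days and in 6 at 14 days. At 3 days 0% and at 7 days 0% of all genes were called. At an unadjusted p under 0.05 there were 2 members at 3 days and 15 at 7 days, and DESeq2 called 0 and 1. Here and below, unadjusted and DESeq2 counts come without the share over all genes unless it stands beside them. They are not read as a result about the members. The smallest p-values at 3 days belonged to the Slit receptor Robo2 (log2 change 1.47), Sema3c (0.41) and the Eph receptor Epha7 (0.77), all with an adjusted p of 1. At 7 days they belonged to Sema4g (1.80, adjusted p = 0.138), Plxnb3, a receptor for Sema5a (0.95, adjusted p = 0.235), and Epha5 (0.95, adjusted p = 0.238).

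At 14 days all 6 called members were higher in Mutant nerves, where 8.29% of all genes (7.05% higher and 1.24% lower) and 9.52% of the members were called. For Plxnd1, the receptor of Sema3e, Mutant nerves had 78.9, 68.0 and 153 CPM, against 55.9, 35.6 and 38.6 CPM in wild type nerves (log2 change 1.204, SE 0.277, adjusted p = 0.0189). Ntn1 had 41.1, 34.1 and 81.7 CPM in Mutant nerves, against 28.1, 29.4 and 28.5 CPM in wild type nerves (log2 change 0.87, SE 0.225, adjusted p = 0.0305). Replicate 3 was the highest Mutant library in both. Sema4c had 26.5, 18.1 and 48.4 CPM in Mutant nerves, against 19.0, 9.88 and 14.6 CPM in wild type nerves (log2 change 1.10, SE 0.307, adjusted p = 0.0408). Sema3g had 29.4, 25.2 and 76.6 CPM in Mutant nerves, against 23.5, 15.3 and 15.4 CPM in wild type nerves (log2 change 1.28, SE 0.367, adjusted p = 0.0452). Sema4c was the called member whose groups overlapped, and 94.5% of all called genes had groups that did not. Plxna3, a plexin for class 3 semaphorins, had 6.52, 5.29 and 13.4 CPM in Mutant nerves, against 4.46, 3.61 and 3.94 CPM in wild type nerves (log2 change 1.07, SE 0.311, adjusted p = 0.0464). Sema6d had 22.7, 19.4 and 37.8 CPM in Mutant nerves, against 17.96, 11.1 and 11.2 CPM in wild type nerves (log2 change 0.99, SE 0.288, adjusted p = 0.0472). In each of the 6, Mutant replicates 1 and 2 lay much closer to the wild type values than replicate 3 did.

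The median change of the members at 14 days was 0.48, against -0.02 over all genes. The count was 0 without Mutant replicate 3 and 0 without wild type replicate 2 or 3, 24 without Mutant replicate 2 and 12 without Mutant replicate 1. It was 0 with only the 2 groups compared, 3 without the low-count filter and 12 with DESeq2. Wild type replicates 2 and 3 held 129747 and 91187 CPM of muscle markers and replicate 1 10717 CPM, beside the Mutant values given above. With the muscle level as a covariate, a choice made after seeing the data, the same 6 members were called and 1 more. The part of muscle RNA in the result was not tested beyond that fit. Of 57 pathway genes 11 were higher and 0 lower, led by Abl1, a tyrosine kinase of Robo and Eph signalling (log2 change 1.15, SE 0.211, adjusted p = 0.00733), and Fes (log2 change 0.74, SE 0.137, adjusted p = 0.00737). The Mutant effect at 14 days minus that at 3 days was tested as an interaction, and 0 of 63 members passed (0.0568% of all genes; 8 members at an unadjusted p under 0.05, 0 in DESeq2). Its smallest p-values belonged to Plxnd1 (1.10, adjusted p = 0.28), Plxna1 (1.22, adjusted p = 0.332) and Sema3g (1.23, adjusted p = 0.358). With the muscle level as a covariate, added after seeing the data, 3 members passed.

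The table with Ndrg1 held the widest changes. In Ndrg1 libraries 41 of 63 tested members differed from controls (10 higher and 31 lower), where 60.5% of all 15910 genes were called (30.8% higher and 29.7% lower). In Mitf-Ndrg1 libraries 44 of 63 differed from libraries labelled Mitf (20 higher and 24 lower), where 57.6% of all genes were called (29.7% higher and 27.9% lower). The members' shares, 65.1% and 69.8%, lay near or somewhat above those backgrounds. These 2 comparisons have no library in common. All 10 members higher in Ndrg1 libraries were also among the 20 higher in Mitf-Ndrg1 libraries (all of one list and 10 of the 20 of the other), 24 lower members were shared (77.4% of the 31 and all of the 24), and 0 went in opposite directions. The 10 include the opposite-strand transcript Plxna4os1. It passed the low-count filter only through libraries with the Ndrg1 label, so it could only be called higher. The groups did not overlap for 32 members in either comparison, 50.8% of those tested, beside 41.9% and 40.5% of all genes tested. The median change of the members was -0.34 in Ndrg1 against control and -0.01 in Mitf-Ndrg1 against Mitf, beside 0.02 and 0.01 over all genes. The share of higher calls, 15.9% of members in Ndrg1 libraries, compares with 30.8% of all genes, and the share of lower calls, 49.2%, with 29.7%.

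Semaphorins made up most of the lower ligands, with 13 of 20 tested lower and 1 higher in Ndrg1 libraries, and 8 lower and 4 higher in Mitf-Ndrg1 libraries. Sema3b had 638, 518, 437, 629.9 and 611 CPM in Ndrg1 libraries, against a lowest of 1924, a median of 2394 and a highest of 2835 CPM in controls (log2 change -2.05, SE 0.177, adjusted p = 7.09e-10). In Mitf-Ndrg1 libraries it had 455, 576, 971, 767 and 979.5 CPM, against a lowest of 1477, a median of 2153 and a highest of 2503 CPM in libraries labelled Mitf (log2 change -1.47, SE 0.173, adjusted p = 1.3e-07). The most abundant guidance ligand of the nerve was thus lower in all 10 libraries with the Ndrg1 label than in any of the 12 without it. Sema5a had 236, 164, 189.8, 196 and 154 CPM in Ndrg1 libraries, against a lowest of 689.8, a median of 818 and a highest of 982 CPM in controls (log2 change -2.12, SE 0.2, adjusted p = 4.74e-09). Mitf-Ndrg1 libraries had Sema5a at 129.8, 138, 227, 216 and 327 CPM, against a lowest of 634, a median of 862 and a highest of 1032 CPM in libraries labelled Mitf (log2 change -2.01, SE 0.199, adjusted p = 1.29e-08). No value with the Ndrg1 label reached the lowest value without it.

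Sema4f had 6.08, 6.82, 5.83, 7.04 and 10.2 CPM in Ndrg1 libraries, against a lowest of 0.224, a median of 0.365 and a highest of 0.626 CPM in controls (log2 change 4.10, SE 0.27, adjusted p = 4.59e-12). In Mitf-Ndrg1 libraries Sema4f had 5.59, 7.02, 9.83, 11.7 and 7.23 CPM, against a lowest of 0.311, a median of 0.467 and a highest of 0.639 CPM in libraries labelled Mitf (log2 change 4.13, SE 0.267, adjusted p = 4.06e-12). It had the smallest p of all members in both comparisons. Sema4g had 75.3, 67.0, 93.0, 84.0 and 125 CPM in Mitf-Ndrg1 libraries, against a lowest of 179.8, a median of 239 and a highest of 263 CPM in libraries labelled Mitf (log2 change -1.39, SE 0.147, adjusted p = 2.18e-08), and Sema6c had 77.9, 81.3, 108, 92.0 and 117 CPM, against a lowest of 203, a median of 259.7 and a highest of 281 CPM (log2 change -1.39, SE 0.176, adjusted p = 5.37e-07). Both were lower in every Mitf-Ndrg1 library. In Ndrg1 libraries Sema4g stood at -1.03, Sema6c at -1.13, Sema6d at -1.17 and Sema3g at -0.90, all called.

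Of the other ligands, Slit3, a secreted Slit, had 11.8, 10.1, 7.67, 9.04 and 10.6 CPM in Ndrg1 libraries, against a lowest of 17.97, a median of 20.4 and a highest of 26.5 CPM in controls (log2 change -1.08, SE 0.12, adjusted p = 3.35e-08). Slit2 was lower too (-1.57 in Ndrg1 and -1.33 in Mitf-Ndrg1 libraries). Efnb2, a transmembrane ephrin known from arteries, had 20.5, 19.0, 18.9, 19.7 and 20.2 CPM in Ndrg1 libraries, against a lowest of 12.7, a median of 14.6 and a highest of 15.2 CPM in controls (log2 change 0.47, SE 0.0871, adjusted p = 5.43e-05). It had 23.2, 23.8, 25.7, 25.9 and 24.2 CPM in Mitf-Ndrg1 libraries, against a lowest of 11.2, a median of 15.5 and a highest of 17.5 CPM in libraries labelled Mitf (log2 change 0.70, SE 0.0864, adjusted p = 2.47e-07). Efnb2 was higher in every library with the Ndrg1 label than in any without it. Ntn4, a secreted laminin-related netrin, had 29.3, 28.8, 26.2, 24.1 and 26.4 CPM in Mitf-Ndrg1 libraries, against a lowest of 14.2, a median of 16.05 and a highest of 19.1 CPM in libraries labelled Mitf (log2 change 0.73, SE 0.0899, adjusted p = 2.08e-07).

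Among 12 Eph receptors, Epha2, Epha4, Epha6, Ephb1, Ephb4 and Ephb6 were lower and Epha5 higher in both comparisons, and Ephb2 was higher in Mitf-Ndrg1 libraries. Epha6 was at a low level (1.12 ± 0.574 CPM in Ndrg1 libraries, SD, n = 5, against 4.71 ± 1.06 CPM in controls, SD, n = 6). Ephb1, a kinase for ephrin-B ligands, had 6.87, 5.20, 2.88, 7.08 and 6.83 CPM in Ndrg1 libraries, against a lowest of 19.97, a median of 22.6 and a highest of 23.6 CPM in controls (log2 change -1.94, SE 0.196, adjusted p = 9.83e-09). Ephb6 had 67.6, 51.3, 37.2, 62.3 and 57.3 CPM in Ndrg1 libraries, against a lowest of 136, a median of 156 and a highest of 180.0 CPM in controls (log2 change -1.496, SE 0.174, adjusted p = 1.45e-07). The Ephb1 range in Ndrg1 libraries was far below that of controls, and the Ephb6 ranges were apart as well. Epha2, a kinase for ephrin-A ligands, had 15.7, 16.3, 13.9, 17.3 and 16.4 CPM in Ndrg1 libraries, against a lowest of 23.8, a median of 32.5 and a highest of 38.5 CPM in controls (log2 change -0.99, SE 0.119, adjusted p = 1.19e-07). Epha4 had 3.77, 4.86, 5.56, 4.77 and 6.36 CPM in Mitf-Ndrg1 libraries, against a lowest of 7.87, a median of 12.6 and a highest of 14.9 CPM in libraries labelled Mitf (log2 change -1.24, SE 0.165, adjusted p = 7.06e-07). Both kinases were lower in every library with the Ndrg1 label than in any without it.

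Epha5, the Eph receptor higher in both, had 19.1, 18.4, 27.3, 17.9 and 20.5 CPM in Ndrg1 libraries, against a lowest of 8.32, a median of 10.6 and a highest of 13.5 CPM in controls (log2 change 0.98, SE 0.13, adjusted p = 5.69e-07). In Mitf-Ndrg1 libraries Epha5 had 20.02, 18.4, 23.4, 22.3 and 19.5 CPM, against a lowest of 8.73, a median of 9.86 and a highest of 12.1 CPM in libraries labelled Mitf (log2 change 1.01, SE 0.129, adjusted p = 3.89e-07). Its 10 values with the Ndrg1 label all lay above its 12 values without it.

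Of the semaphorin receptors, Nrp1 had 38.1, 32.8, 36.2, 39.1 and 35.2 CPM in Ndrg1 libraries, against a lowest of 20.1, a median of 20.9 and a highest of 24.2 CPM in controls (log2 change 0.74, SE 0.0869, adjusted p = 7.76e-08). Mitf-Ndrg1 libraries had Nrp1 at 31.7, 36.5, 42.5, 40.6 and 47.2 CPM, against a lowest of 22.5, a median of 23.6 and a highest of 27.1 CPM in libraries labelled Mitf (log2 change 0.72, SE 0.0865, adjusted p = 1.6e-07). Nrp2 moved the other way (-0.87 in Ndrg1 and -0.84 in Mitf-Ndrg1 libraries). Plxnc1 had 24.1, 22.4, 24.3, 25.6 and 23.5 CPM in Ndrg1 libraries, against a lowest of 12.8, a median of 14.9 and a highest of 17.7 CPM in controls (log2 change 0.67, SE 0.0802, adjusted p = 1.11e-07). It had 24.9, 25.7, 25.9, 24.96 and 27.5 CPM in Mitf-Ndrg1 libraries, against a lowest of 14.6, a median of 15.3 and a highest of 18.8 CPM in libraries labelled Mitf (log2 change 0.70, SE 0.0798, adjusted p = 7.09e-08). Plxnb1, the receptor of Sema4d, had 97.7, 83.3, 114, 103 and 130.2 CPM in Mitf-Ndrg1 libraries, against a lowest of 189.6, a median of 247 and a highest of 261 CPM in libraries labelled Mitf (log2 change -1.16, SE 0.115, adjusted p = 6.55e-09). The groups were apart for each of these.

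Unc5a, a netrin receptor, had 8.40, 4.99, 3.93, 10.7 and 9.97 CPM in Ndrg1 libraries, against a lowest of 2.04, a median of 3.06 and a highest of 3.68 CPM in controls (log2 change 1.37, SE 0.257, adjusted p = 6.72e-05). Robo1 was higher as well (1.12 in Ndrg1 and 1.201 in Mitf-Ndrg1 libraries), and the endothelial Robo4 lower (-0.67 and -0.52). Plxna4 was higher (0.81 and 0.85). Its opposite-strand transcript Plxna4os1, also called higher, had 1.48, 0.736, 1.02, 1.29 and 0.875 CPM in Mitf-Ndrg1 and 1.11, 1.16, 0.852, 0.406 and 1.52 CPM in Ndrg1 libraries, against a lowest of 0.169, a median of 0.344 and a highest of 0.433 CPM in Mitf and a lowest of 0.0364, a median of 0.0916 and a highest of 0.250 CPM in control libraries. It averaged 2.67 estimated counts in controls and passed the low-count filter only through the Mitf-Ndrg1 and Ndrg1 libraries, so no fold is given. Whether the counting used strand is not given in the sources used here, so reads of these 2 cannot be told apart.

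Most cell markers of the table moved with the Ndrg1 label. Macrophage markers were higher in 12 and lower in 1 of 14 cases in each comparison, with sums of 4148 to 5448 CPM in Mitf-Ndrg1 and 3949 to 5021 CPM in Ndrg1 libraries, against 602 to 759 CPM in Mitf and 599 to 783 CPM in control libraries. All 10 myelin markers were lower, with sums of 42681 to 71446 CPM in Mitf-Ndrg1 and 48187 to 62183 CPM in Ndrg1, against 150985 to 194604 CPM in Mitf and 161867 to 191197 CPM in control libraries. Endothelial markers were lower in 7 of 11 cases in Mitf-Ndrg1 and 10 of 11 in Ndrg1 libraries, with sums of 331 to 412 CPM and 268 to 311 CPM, against 506 to 618 CPM in Mitf and 494 to 577 CPM in control libraries. All 11 repair Schwann cell markers were higher in both, and 8 of 9 adipocyte markers were higher in Mitf-Ndrg1 libraries (97.4 to 978 CPM, against 37.4 to 287 CPM in Mitf). Their part in the members' changes was not tested. Of 58 pathway genes, 15 rose and 25 fell in Mitf-Ndrg1 libraries and 14 rose and 25 fell in Ndrg1 libraries. Fes (log2 change 1.25, SE 0.118, adjusted p = 3.01e-09 in Mitf-Ndrg1 and log2 change 1.49, SE 0.119, adjusted p = 1.44e-10 in Ndrg1 libraries) and Dpysl3 (log2 change 0.89, SE 0.11, adjusted p = 2.28e-07 and log2 change 0.74, SE 0.11, adjusted p = 3.05e-06) led the higher ones. Adam10 (log2 change -1.39, SE 0.132, adjusted p = 3.28e-09 and log2 change -1.49, SE 0.132, adjusted p = 8.7e-10) was low in both, with Mical3 (log2 change -0.99, SE 0.0948, adjusted p = 3.53e-09) in Mitf-Ndrg1 and Neo1 (log2 change -1.42, SE 0.116, adjusted p = 2.12e-10) in Ndrg1 libraries. With single libraries left out, 40 to 45 members were called in Mitf-Ndrg1 against Mitf and 40 to 43 in Ndrg1 against control.

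**Figure D4:**
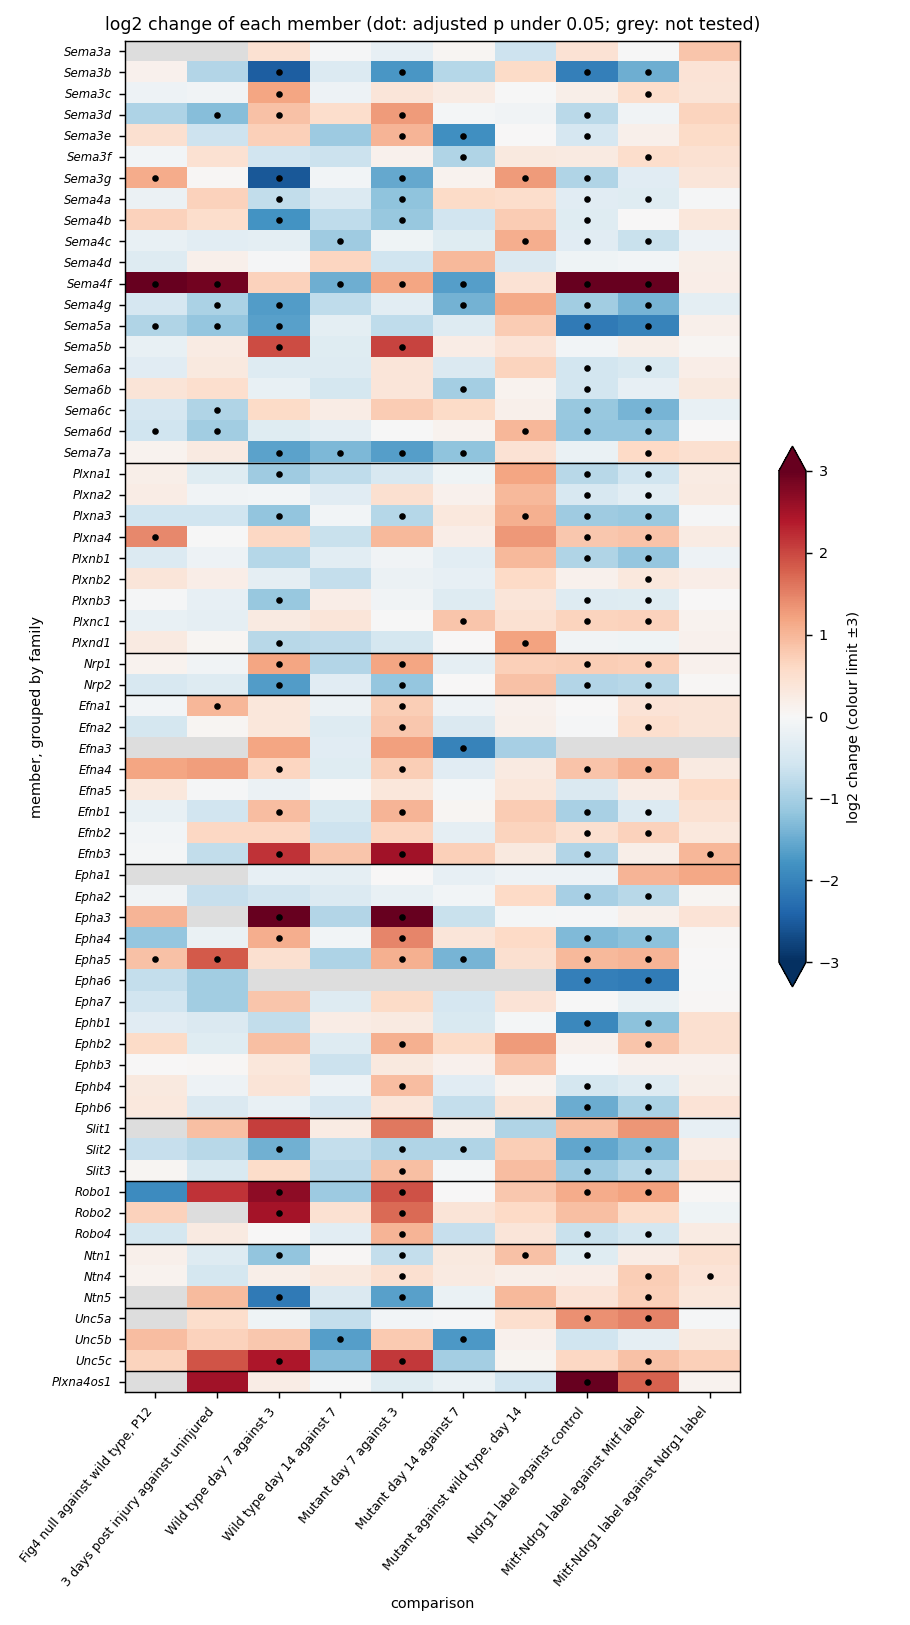
Log2 change of each tested member (rows, by family) in the 10 comparisons with at least 1 call (columns), the first-named group minus the second; red is higher, blue lower, colours stop at ± 3, and dots mark adjusted p under 0.05. The columns for Ndrg1 and Mitf-Ndrg1 carry 41 and 44 dots, and the 7 against 3 day columns carry 31 in Mutant and 27 in wild type nerves.

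Mitf-Ndrg1 libraries were also set directly against Ndrg1 libraries, which asks what differs with the Mitf label where the Ndrg1 label is present. Here 2 of 63 members were called, both higher, where 1.47% of all genes were called (1.07% higher and 0.402% lower). Efnb3 had 13.9, 13.2, 11.7, 19.1 and 14.3 CPM in Mitf-Ndrg1 libraries, against 5.01, 8.85, 7.54, 7.82 and 7.17 CPM in Ndrg1 libraries (log2 change 0.99, SE 0.177, adjusted p = 0.00815). Ntn4 had 29.3, 28.8, 26.2, 24.1 and 26.4 CPM in Mitf-Ndrg1 libraries, against 19.1, 21.3, 23.9, 21.1 and 16.4 CPM in Ndrg1 libraries (log2 change 0.41, SE 0.0941, adjusted p = 0.0317). The groups did not overlap for either, as for 65.8% of all called genes. Without the Ndrg1 label, Efnb3 ran from 8.64 to 17.05 CPM in libraries labelled Mitf and from 11.1 to 17.9 CPM in controls. The Ndrg1 group thus held the lowest values of the 4 groups, and its highest value lay just above the lowest Mitf value. The interaction of the labels, that is the change with Ndrg1 among Mitf-labelled libraries minus that among the others, was called for Efnb3 alone of 63 members (0.39% of all genes, 0.289% positive and 0.101% negative; log2 change 1.05, SE 0.238, adjusted p = 0.0485).

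The median change of the members between Mitf-Ndrg1 and Ndrg1 libraries was 0.25, against 0.00 over all genes. Endothelial markers were higher in 6 of 11 cases and perineurial markers in 2 of 6 (sums of 401 to 470 CPM in Mitf-Ndrg1 and 225 to 337 CPM in Ndrg1 libraries); their part in the result was not tested. Of 58 pathway genes, Flrt2 was called (log2 change 0.80, SE 0.18, adjusted p = 0.0289). DESeq2 called 7 members for the direct comparison and 4 for the interaction. The Ntn4 call was lost with the muscle level as a covariate and with only the 2 groups compared, where its adjusted p was highest of all alternatives run (0.193). With only the 2 groups compared 1 member was called, and likewise without Ndrg1 replicate 1, 4 or 5 or Mitf-Ndrg1 replicate 2 or 3, and 4 were called without Mitf-Ndrg1 replicate 1. The interaction was not called for any member without the low-count filter, and with single libraries left out it was called for 0 to 3: for 3 without Mitf replicate 2 or Mitf-Ndrg1 replicate 1, for 2 without control replicate 3 or Ndrg1 replicate 3, and for 0 without control replicate 1, 2, 4 or 6, Mitf replicate 3, 5 or 6, Ndrg1 replicate 1, 4 or 5, or Mitf-Ndrg1 replicate 2, 3, 4 or 5. With the muscle level as a covariate, added after seeing the data, it was called for 2.

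**Figure D5:**
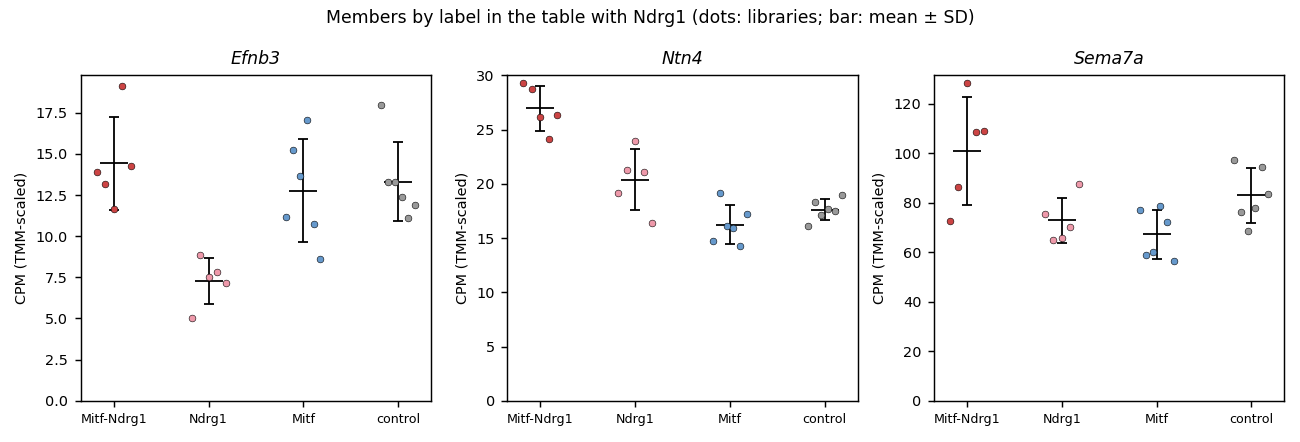
Level (CPM, linear axis) of Efnb3, Ntn4 and Sema7a in Mitf-Ndrg1, Ndrg1, Mitf and control libraries; dots are libraries and bars the mean ± SD. Efnb3 is lowest in Ndrg1 libraries, and Ntn4 is highest in Mitf-Ndrg1 libraries, between 24.1 and 29.3 CPM.

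The remaining comparisons bear on the Mitf label without the Ndrg1 label or an injury, and none called a member. Between libraries labelled Mitf and DhhCre at P21, 0 of 56 members passed in edgeR (0.0143% of all genes) and 0 in DESeq2. At an unadjusted edgeR p under 0.05 there were 3 members, beside 408 of all 13943 genes. The smallest p-values belonged to Sema5a (log2 change -0.30), Sema6d (-0.16) and Ntn5 (0.83). Between libraries labelled Mitf and Egr2Cre at P12, 0 of 58 passed (0.0139% of all genes) and 0 in DESeq2. At an unadjusted edgeR p under 0.05 there were 2 members, beside 371 of all 14415 genes. The smallest p-values were those of Ntn5 (-0.60), Sema7a (-0.26) and Sema6a, a transmembrane class 6 semaphorin (-0.42). Each of these 6 had an adjusted p of 1.

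Between libraries labelled Egr2Cre Mitf and Mitf, 0 of 62 members passed (0% of all genes; 6 at an unadjusted p under 0.05, 0 in DESeq2). Epha5 (0.64), Sema6a (0.47) and Sema3e (0.47) had the smallest p-values, each with an adjusted p of 0.846. Between libraries labelled Mitf and controls, 0 of 63 passed (0.00629% of all genes; 2 at an unadjusted p under 0.05, 0 in DESeq2). The smallest p-values there belonged to Plxna4os1 (adjusted p = 0.666), Sema7a (-0.30, adjusted p = 0.669) and Nrp1 (0.16, adjusted p = 0.843). None of the pathway genes tested was called in these 4 comparisons. An adjusted p above the threshold does not show that the members were equal between the groups.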

How the data were processed

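RNA of mouse sciatic nerve was sequenced as stranded poly(A) libraries, per the labels' protocols. The 8 deposited tables hold the authors' estimated counts per gene, made with kallisto on mm10 per the submitters' processing notes; the version, annotation and strand setting were not given in the sources used here. Every value column was used. Counts were rounded to whole numbers. Genes were kept by edgeR's low-count filter (minimum 10 counts), scaled by TMM and tested within a table with edgeR's robust quasi-likelihood test (edgeR 4.0.16, R 4.3.3), over all groups of the table, with Benjamini-Hochberg adjusted p-values over all genes and a threshold of 0.05. The standard error is the log2 change divided by the root of the test's F value. TPM used the median transcript length of GENCODE vM21. DESeq2 1.42.0, other filters and scalings, a replicate block, a skeletal muscle covariate and leaving out single libraries were alternatives.

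In each comparison the 6 higher and 6 lower called members with the smallest p-values were named, and 2 pathway genes of each direction. Members and lists were chosen with earlier results of these data known. A marker gene of the Schwann cell lists is not reported here and was left out of their sums. Fits were tested on simulated data. Same-numbered samples deviated together, with every pair's correlation over 0.1, in the DhhCre table (0.111 to 0.358) and the Egr2Cre Mitf table (0.211 to 0.482); the block changed no member's call there. No libraries of a group differed by as little as sampling noise (lowest chi-square per degree of freedom 9.607). Precision is limited by 3 to 6 libraries per group.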

Additional observations from a re-analysis of the deposited data

Results flagged for a closer look

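In 69 sets of values of named members in groups of 4 to 6 libraries, 3 held a library far from the others; chance alone sets apart about 1 in 20 such groups. Efnb3 was 17.9 CPM in control replicate 1 of the table with Ndrg1, against 11.1 to 13.3 CPM in the other 5 controls. Epha5 was 27.3 CPM in Ndrg1 replicate 3, against 17.9 to 20.5 CPM in the other 4. Sema4f was 10.2 CPM in Ndrg1 replicate 5, against 5.83 to 7.04 CPM in the other 4. The change of Efnb3 with the Ndrg1 label differed between libraries with and without the Mitf label by 1.05 on the log2 scale (edgeR interaction test, adjusted p = 0.0485).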

How the results depend on the processing

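Counts below are members past edgeR's test unless another tool is named; no named member changed direction under the alternatives run. Of 445 values of named members under other settings 56 no longer passed, and of 652 with a library left out 105 no longer passed. The muscle covariate gave 0 members for Fig4 -/- at P12, where that fit cannot separate muscle level from genotype. Added after seeing the data, it gave 5 and 0 for 14 against 7 days in Mutant and wild type nerves. It gave 3 for the Mutant effect at 14 minus 3 days and 2 for the Mitf by Ndrg1 interaction. All 6 calls for Mutant against wild type at 14 days were kept, and all 41 for Ndrg1 and 44 for Mitf-Ndrg1 against Mitf, with 1, 2 and 1 gained. DESeq2 gave 9 for wild type 14 against 7 days, 1 and 12 for Mutant against wild type at 7 and 14 days, 7 for Mitf-Ndrg1 against Ndrg1 and 4 for the interaction. Without the low-count filter there were 5 for injury, 2 for wild type 14 against 7 days, 3 for Mutant against wild type at 14 days and 0 for the interaction. With only the 2 groups compared there were 0 for 14 against 7 days in either genotype, 0 for Mutant against wild type at 14 days and 1 for Mitf-Ndrg1 against Ndrg1. The replicate block gave 1 for Mutant against wild type at 14 days, where numbers do not pair the samples, and 5 for Fig4 at P12, 9 for injury, 29 and 27 for 7 against 3 days and 10 and 3 for 14 against 7 days in Mutant and wild type nerves, 43 for Ndrg1, 42 for Mitf-Ndrg1 against Mitf, 3 for Mitf-Ndrg1 against Ndrg1 and 1 for the interaction. With single libraries left out the counts ran from 2 to 5 for Fig4 at P12, 3 to 20 for injury, 19 to 25 and 22 to 26 for 7 against 3 days and 6 to 24 and 0 to 7 for 14 against 7 days in Mutant and wild type nerves, 0 to 1 and 0 to 24 for Mutant against wild type at 7 and 14 days, 40 to 43 for Ndrg1, 40 to 45 for Mitf-Ndrg1 against Mitf, 1 to 4 for Mitf-Ndrg1 against Ndrg1 and 0 to 3 for the interaction. The cause was not tested, and the shares of all genes called under these alternatives are not given beside the counts. Low counts limit Sema4f in Fig4 +/+ nerves and the members under 1 CPM.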
